A study of Mus musculus with 9 samples.

Results

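The genes described here carry iron into, through and out of the absorptive cells of the small intestine, or store and sense it there. Of the 8 genes listed, 5 (Slc11a2, Slc40a1, Heph, Tfrc and Hfe) had a probe under their own symbol among the 15674 genes named on the arrays. Fth1 was matched by its RefSeq accession to a probe that carries the older name Fth, which gave 6 genes with values. No probe was matched to Cybrd1, the brush border reductase, or to Ftl1, the ferritin light chain, and both were not analysed here. Each of the 6 genes was read by 1 probe.

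The arrays held RNA from the jejunum, the middle stretch of the small intestine, of male OF1 mice, an outbred stock, aged 7 weeks, from generation 3 of a feeding trial. Each of the 9 arrays was hybridised with RNA of 1 mouse, and 3 mice each received feed B (mice 7, 8 and 10), feed K (mice 1, 3 and 4) or feed G (mice 4, 8 and 11). No genotype or agent other than the feed distinguished the groups. According to the paper, the data set addressed a custom maize diet given ad libitum. Which letter stands for that diet is not given in the sources used here, and none of the feeds is treated as a control. All mice were starved for some hours before sampling, and the time of day was not recorded.

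Dietary iron is reduced at the brush border and enters the enterocyte as ferrous iron through the divalent metal transporter Slc11a2. Inside the cell it is held in ferritin, a shell built of heavy chains (Fth1) and light chains, or it leaves through ferroportin (Slc40a1), the iron exporter of the basolateral membrane, and is oxidised there by the ferroxidase hephaestin (Heph). Tfrc, the transferrin receptor, takes up transferrin-bound iron from the blood side and is abundant in dividing cells, and Hfe binds to it and takes part in iron sensing. Iron-regulatory proteins act on several of these transcripts, raising the stability of Tfrc mRNA and holding back ferritin translation when iron is scarce, and hypoxia-inducible factors act on the transcription of several of the genes.

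A spot counted as detected where its signal was at least 3 times its noise. By this measure, the importer Slc11a2, the exporter Slc40a1 and the ferritin gene Fth1 were detected in all 9 mice, Tfrc in 8, Heph in 1 and Hfe in none. The standard deviation of a spot was between 0.782% and 1.90% of its signal for Fth1, between 3.05% and 14.2% for Slc11a2 and between 4.70% and 26.1% for Slc40a1. In jejunum homogenates of this kind, fewer cells of a type and less RNA per cell cannot be told apart. The share of probes detected was between 33.7% and 48.1% per array, and it was lowest in mice 8 and 7 of feed B. Of the villus enterocyte markers, 6 of 10 had a probe and these 6 were detected in all mice. Of the 4 pancreatic enzymes with a probe, Pnlip and Prss2 were detected in none, Amy2 in 2 mice and Cela1 in all 9, at log2 signals between 8.55 and 9.70. Fabp6, a gene of the ileum, was between 4.67 and 19.51 on the log2 scale over the mice. It was not detected in mouse 8 of feed B, so the samples differed in a marker of the distal intestine. Among other distal markers, Slc10a2 was detected in 6 mice. Its ratio of 69.8 between the highest and the lowest mouse includes mice in which it was not detected, so it is not a measured fold. Slc51a, Slc51b and Nr1h4 were detected in all mice, with ratios of 2.29, 3.50 and 2.25.

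**Figure D1:**
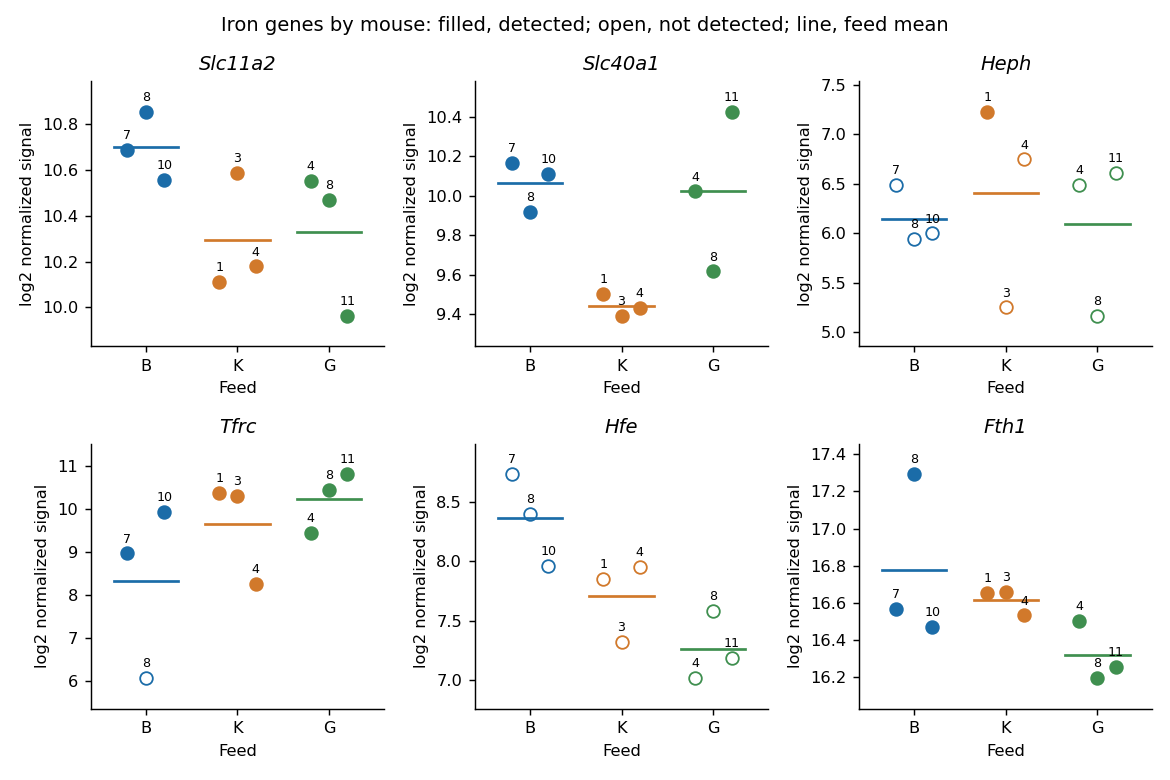
log2 normalized signal (vertical axes, each with its own range) of the 6 iron genes by feed, with 1 point per mouse labelled by mouse number, filled where the spot was detected and open where it was not, and a line at the feed mean. Tfrc lay between 6.07 and 10.80, the 3 mice on feed K had the lowest Slc40a1 values, and Hfe was not detected in any mouse.

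Slc11a2 carries ferrous iron across the brush border. Its normalized log2 signal was 10.69, 10.86 and 10.56 in mice 7, 8 and 10 of feed B. It was 10.11, 10.59 and 10.18 in mice 1, 3 and 4 of feed K. It was 10.55, 10.47 and 9.96 in mice 4, 8 and 11 of feed G. The lowest mouse of feed B lay just above the highest of feed G, and feeds B and K overlapped through mouse 3 of feed K. Differences are given as the mean of the first feed minus that of the second. They were -0.41 (SE 0.23) for K minus B, -0.37 (SE 0.23) for G minus B and 0.04 (SE 0.23) for G minus K, and none passed (limma, adjusted p = 0.821, 0.888 and 0.997). On the fold scale, the 95% interval of feed K over feed B ran from 0.524 to 1.08. With arrays scaled to equal medians, the difference between feeds K and B was 0.0065, and relative to the median of all genes it was -0.40, compared with -0.46 after quantile normalization.

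Slc40a1, ferroportin, is the only known cellular exporter of iron. Its log2 signal was 10.17, 9.92 and 10.11 in mice 7, 8 and 10 of feed B. It was 9.50, 9.39 and 9.43 in mice 1, 3 and 4 of feed K. It was 10.02, 9.62 and 10.43 in mice 4, 8 and 11 of feed G. The 3 mice on feed K lay close together and below every mouse of the other feeds, whereas feeds B and G overlapped. Of all genes tested with a value in every mouse, 2.85% had feed K outside the range of the other feeds in either direction. That share counts feed K alone. The share with any of the 3 feeds outside both others, which can only be as large or larger, was not computed.

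The difference in Slc40a1 was -0.62 (SE 0.23) for K minus B, or 0.650-fold with a 95% interval from 0.453 to 0.932. It was 0.58 (SE 0.23) for G minus K, or 1.49-fold with an interval from 1.04 to 2.14, and -0.04 (SE 0.23) for G minus B. Unadjusted p-values of limma were 0.0247, 0.0334 and 0.853, and 0.0438 for the F test over the feeds. After adjustment over 9652 genes they were 0.784, 0.960, 0.980 and 0.894, so that no difference passed. The two-sided exact permutation test gave p = 0.0536 over the 3 feeds. For feed K against each of the others the exact test gave p = 0.1, the smallest value that 3 mice against 3 allow. With arrays scaled to equal medians, the difference between feeds K and B was -0.22 and that between feeds G and K was 0.75. Under that scaling the median difference of all genes was 0.41 for K minus B, 0.53 for G minus B and 0.11 for G minus K, compared with 0.05, 0.06 and -0.01 after quantile normalization. Relative to these medians, the Slc40a1 differences were -0.63 for K minus B and 0.63 for G minus K, close to the -0.68 and 0.59 found after quantile normalization.

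A marker of the proximal intestine stood apart in the same 3 mice. Gata4, a transcription factor of the proximal small intestine, was 10.46, 10.43 and 10.18 in mice 1, 3 and 4 of feed K, and between 8.57 and 9.96 in the other mice. No difference passed (limma, adjusted p = 0.729 in the F test, 0.773 for K minus B and 0.960 for G minus K). Gata4 was named after its values were seen. It was the 1 detected gene of a list of 5 proximal markers, of which 4 had a probe, and Pdx1, Onecut2 and Bco1 were not detected in any mouse. The mean log2 signal of the 6 villus enterocyte genes was between 17.18 and 17.23 on feed K, between 16.41 and 16.91 on feed B and between 16.62 and 17.19 on feed G, so that feeds K and G overlapped. Over the 9 mice, Slc40a1 had r of -0.52 with Gata4 (two-sided exact permutation test, p = 0.151, adjusted p = 0.639). That r was -0.17 without the 2 mice farthest from the median of Gata4, and 0.46 with the feed means subtracted. Beyond such correlations, the part of these markers in the Slc40a1 values was not tested.

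Over the 9 mice, Slc40a1 had the lowest values where the villus genes were highest. Pearson's r with the mean of the villus list was -0.84 (two-sided exact permutation test, p = 0.00736) and Spearman's rho was -0.85 (exact p = 0.00607). Among the 36 relations between a gene and a marker list these did not pass (adjusted p = 0.265 and 0.219). The value was -0.77 without the 2 mice farthest from the median of the villus list, and -0.84 with the feed means subtracted. With arrays scaled to equal medians, r was 0.086.

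**Figure D2:**
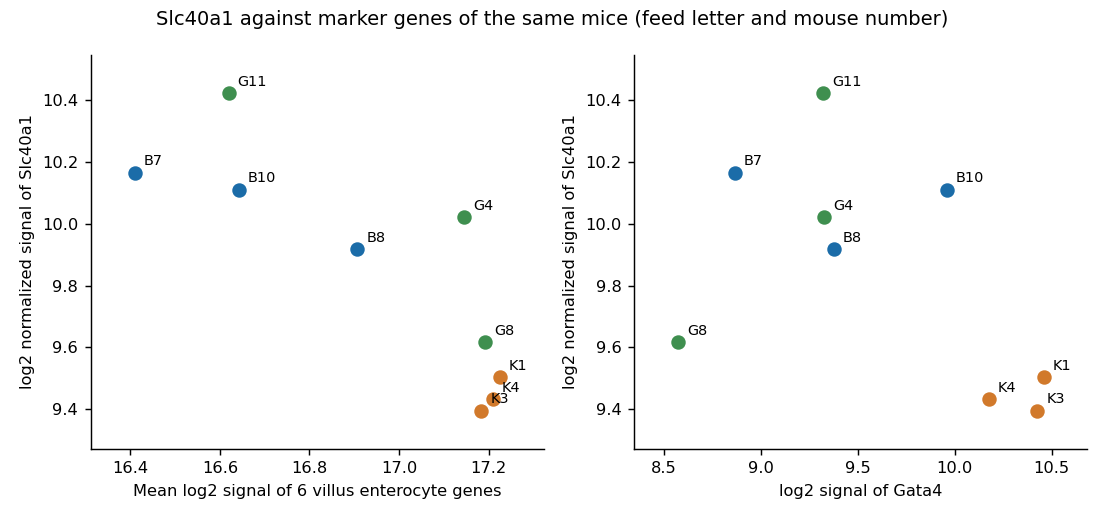
log2 normalized signal of Slc40a1 (vertical axes) against the mean log2 signal of 6 villus enterocyte genes (left) and the log2 signal of Gata4 (right), with 1 point per mouse labelled by feed letter and mouse number. The 3 mice of feed K lie lowest on the vertical axis, at a villus mean between 17.18 and 17.23 and at Gata4 values of 10.18 or more.

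Heph and Hfe were near or below the limit of detection. The signal-to-noise ratio of Heph, the ferroxidase that works beside ferroportin, was 4.48 in mouse 1 of feed K and at most 2.79 in the other mice. Its log2 signal was between 5.17 and 7.23, and all feeds overlapped. Heph was not tested, and no fold is given because 2 of the 3 mice of feed K and all other mice were not detected. The signal-to-noise ratio of Hfe was between -1.41 and 1.52. For spots with a ratio below 1, the deposited signal equals the standard deviation of the spot, which held for all 119010 such spots, so for Hfe no fold is given either.

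Tfrc was the most variable of the detected members. Its promoter is shown here because a hypoxia response element is known for the transferrin receptor gene. The stretch runs from 90 bases before the first of 2 starts in the RefSeq table to 10 bases from it on, at chr16:32608806-32608905 on the plus strand of GRCm38.p6. That of Fth1, at chr19:9982556-9982655 on the plus strand and placed alike around the second of 2 starts, is given for comparison. Capitals mark TACGTGC, which includes the core ACGTG.
Tfrc: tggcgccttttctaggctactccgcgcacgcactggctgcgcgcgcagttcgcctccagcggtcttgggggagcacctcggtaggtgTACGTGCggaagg
Fth1: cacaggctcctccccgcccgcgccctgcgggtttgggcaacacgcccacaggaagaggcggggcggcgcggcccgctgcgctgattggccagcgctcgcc
On either strand, ACGTG was in 19.6% and TACGTGC in 0.773% of the 32851 promoter windows of the table. Of the 8 genes, 5 had windows there, 7 in all, and the 2 windows of Tfrc, which overlap, were the ones with either motif. A match is a run of letters and says nothing of binding in these mice. Slc11a2, Slc40a1 and Heph had no window in the table.

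The log2 signal of Tfrc was 8.96, 6.07 and 9.92 in mice 7, 8 and 10 of feed B. It was 10.37, 10.29 and 8.27 in mice 1, 3 and 4 of feed K. It was 9.44, 10.44 and 10.80 in mice 4, 8 and 11 of feed G. Mouse 8 of feed B was lowest, and at a signal-to-noise ratio of 0.53 its spot was not detected. Mouse 4 of feed K, the next lowest, was detected at a ratio of 3.73. The SD within feeds was 1.41, and every pair of feeds overlapped. The difference was 1.91 (SE 0.99) for G minus B, 1.33 (SE 0.99) for K minus B and 0.58 (SE 0.99) for G minus K (limma, adjusted p = 0.876, 0.865 and 0.972). The 95% interval of feed G over feed B ran from 0.777-fold to 18.1-fold. Without mouse 8 of feed B, the difference was 0.79 (SE 0.73) for G minus B and 0.20 (SE 0.73) for K minus B. Without mouse 4 of feed K, that for G minus K turned to -0.11 (SE 1.05).

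The SD of Tfrc over the 9 mice was 1.48 on the log2 scale, above that of 99.6% of the 5887 genes that every array detected, whose median SD was 0.29. The ratio of the highest to the lowest mouse was 26.4. In the lowest, mouse 8 of feed B, the deposited signal equals the standard deviation of the spot. The SD and the ratio over the 9 mice thus rest partly on a value that is not a detected signal. Over the 8 mice in which Tfrc was detected, the SD was 0.86 and the ratio 5.78, and its SD lay above that of 97.0% of those genes over the same mice. The standard deviation of the Tfrc spot in these 8 mice was between 2.95% and 26.8% of its signal.

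The Tfrc values followed the share of probes detected on an array, a relation chosen after the data were seen. Pearson's r was 0.83 (two-sided exact permutation test, p = 0.00591, adjusted p = 0.0236 over 4 genes). Spearman's rho was 0.80 (exact p = 0.0138, adjusted p = 0.0553). The value of r was 0.59 without the 2 mice farthest from the median share, and 0.76 with the feed means subtracted. For Fth1, r was -0.76 (exact p = 0.0132, adjusted p = 0.0264), rho was -0.58 (exact p = 0.108, adjusted p = 0.216), and r was -0.48 without the same 2 mice. These relations with the share were computed after quantile normalization only. With arrays scaled to equal medians, Fth1 was highest in mouse 3 of feed K rather than in mouse 8 of feed B. The part of array quality in the Tfrc and Fth1 values was not tested further. Slc11a2 and Slc40a1 had r of -0.43 and -0.14 with the share (exact p = 0.246 and 0.711, adjusted p = 0.328 and 0.711).

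**Figure D3:**
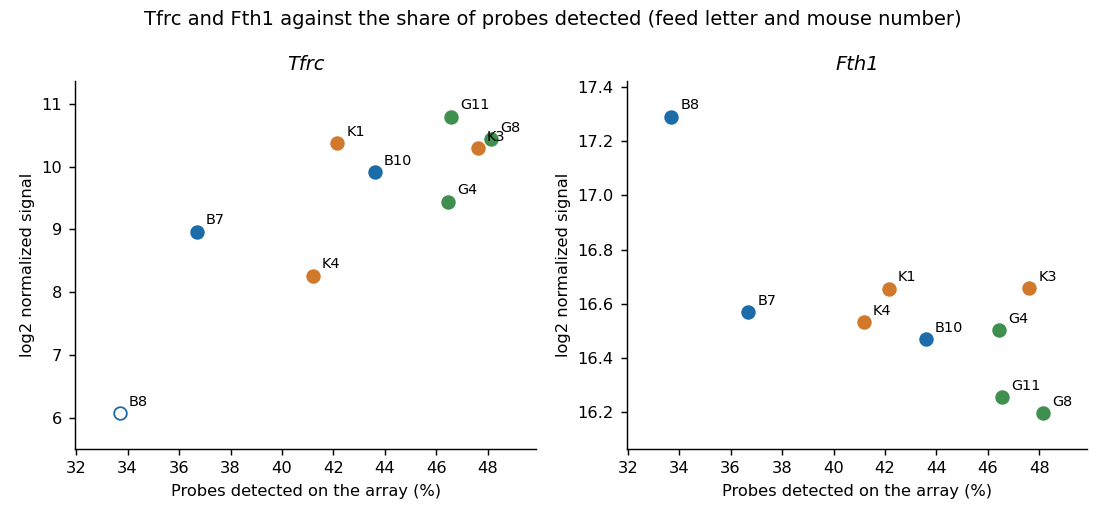
log2 normalized signal (vertical axes) of Tfrc (left) and Fth1 (right) against the share of probes detected on the array in percent, with 1 point per mouse labelled by feed letter and mouse number and an open point where the gene was not detected. Mouse 8 of feed B has the smallest share, 33.7%, the lowest Tfrc, 6.07, and the highest Fth1, 17.29.

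Fth1 encodes the ferritin heavy chain, which oxidises iron as it is stored. Its log2 signal was 16.57, 17.29 and 16.47 in mice 7, 8 and 10 of feed B. It was 16.66, 16.66 and 16.53 in mice 1, 3 and 4 of feed K. It was 16.50, 16.19 and 16.25 in mice 4, 8 and 11 of feed G. The mice of feed G lay below those of feed K by a narrow margin, feed B overlapped both, and mouse 8 of feed B stood above all others. The difference was -0.46 (SE 0.24) for G minus B, -0.16 (SE 0.24) for K minus B and -0.30 (SE 0.24) for G minus K (limma, adjusted p = 0.879, 0.953 and 0.960). Without mouse 8 of feed B, the difference was -0.20 (SE 0.18) for G minus B and turned to 0.10 (SE 0.18) for K minus B. With arrays scaled to equal medians, the differences of feeds G and K from feed B were 0.08 and 0.14, and relative to the median of all genes -0.44 and -0.27.

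**Figure D4:**
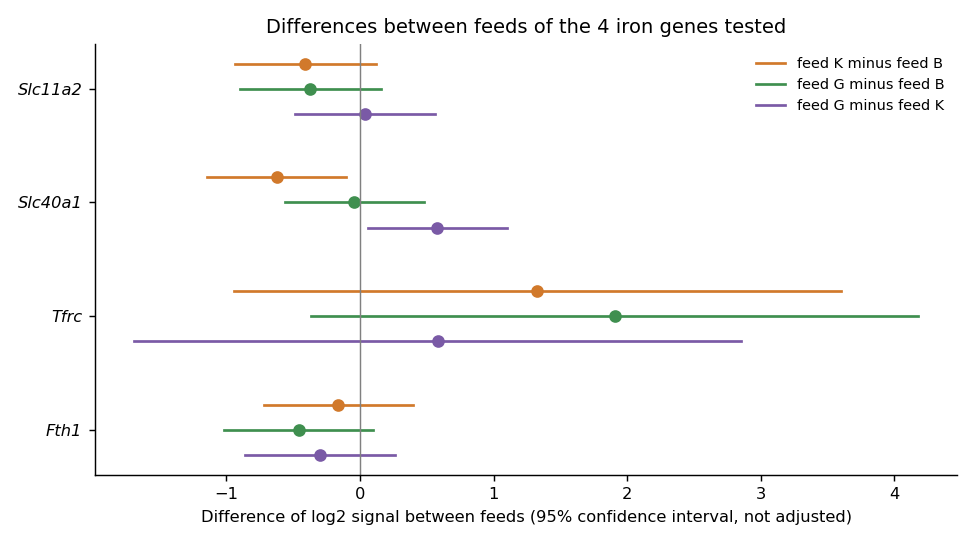
Differences of log2 signal between feeds (horizontal axis, points) of the 4 iron genes tested, with 95% confidence intervals from limma that are not adjusted for the number of genes. The intervals of Slc40a1 for K minus B and G minus K leave out 0, the others include it, and no adjusted p was below 0.05.

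Of the 4 members detected on at least 3 arrays and so tested, none was called in the F test or in any pair of feeds, and 0% of the 9652 genes were called by limma. At an unadjusted p below 0.05, 1 of the 4 members passed the F test, against 518 genes (5.37%) of all. In the pairs of feeds, 1 of 4 passed for K minus B (6.31% of all genes), none for G minus B (5.74%) and 1 for G minus K (4.54%), and the gene was Slc40a1 each time. The exact permutation test over the 3 feeds called none of 9556 genes with a value in every mouse, with 486 at an unadjusted p below 0.05. With 280 splits of the mice, this exact test cannot give a p below 0.00357 over the 3 feeds. After adjustment a call would need many genes at that floor, so the absence of calls is no separate evidence. For a pair of feeds it cannot give a p below 0.1. Feeds K and B did not overlap for 1 member, Slc40a1 (9.94% of all genes), feeds G and B for 1, Slc11a2 (10.9%), and feeds G and K for 2, Slc40a1 and Fth1 (13.7%).

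The other detected members lay nearer the middle of all genes in their spread over mice. The SD of Slc11a2 was 0.29, with a ratio of 1.86 between the highest and the lowest mouse, and it lay at percentile 49.9 of the genes that every array detected. For Slc40a1 the SD was 0.37, the ratio 2.04 and the percentile 66.4. For Fth1 the SD was 0.32, the ratio 2.14 and the percentile 55.1, and without mouse 8 of feed B the SD was 0.17, the ratio 1.38 and the percentile 15.9. Of all genes detected on the 9 arrays, 57.9% had a ratio of at most 2.

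**Figure D5:**
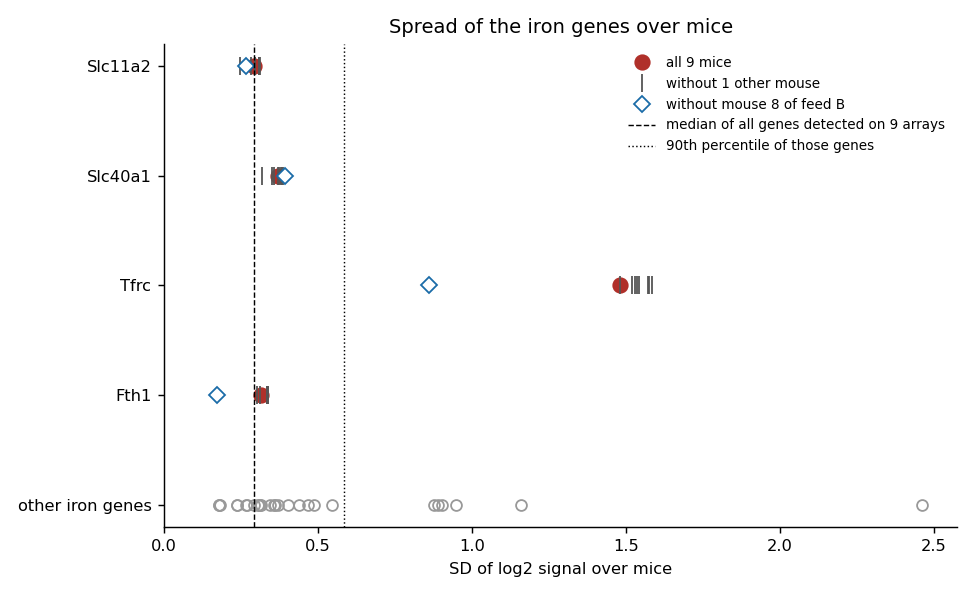
SD of log2 signal over mice (horizontal axis) of the 4 members detected on at least 7 arrays, with all 9 mice, without mouse 8 of feed B and without each other mouse, and of the other iron genes detected on at least 7 arrays (open circles). Dashed and dotted lines mark the median, 0.29, and the 90th percentile, 0.58, of the 5887 genes detected on all arrays, and Tfrc lies to the right of both.

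Between members, no relation over the mice passed. By Pearson's r, Tfrc and Fth1 had the strongest, with r of -0.83 (two-sided exact permutation test, p = 0.0206, adjusted p = 0.123 over 6 pairs) and rho of -0.57 (exact p = 0.121, adjusted p = 0.266). With the feed means subtracted r was -0.77, in the table of the whole series it was -0.21, and with arrays scaled to equal medians it turned to 0.10. It was -0.25 without the 2 mice farthest from the median of Fth1, so that the relation rested on those mice, and -0.37 without mouse 8 of feed B. Slc11a2 had r of -0.56 with Tfrc and 0.56 with Fth1 (exact p = 0.110 and 0.107, adjusted p = 0.220 for both), and with Tfrc the largest rho of the 6 pairs, -0.65 (exact p = 0.0666, adjusted p = 0.266). Between the importer Slc11a2 and the exporter Slc40a1, r was 0.04 (exact p = 0.925, adjusted p = 0.971), and -0.69 with the feed means subtracted.

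None of the 36 relations with a marker list passed. Slc11a2 had r of 0.72 with the mean of 3 macrophage genes (exact permutation test, p = 0.0227, adjusted p = 0.409). Leaving out 1 mouse at a time gave r between 0.51 and 0.86, the highest without mouse 8 of feed B (exact p = 0.00136, adjusted p = 0.0491). It was 0.46 without the 2 mice farthest from the median of the macrophage list, and 0.27 without the 2 farthest in Slc11a2. Tfrc had r of 0.53 with the mean of Top2a, Pcna and Lgr5, genes of crypt and dividing cells (exact p = 0.137, adjusted p = 0.639). With arrays scaled to equal medians that r was 0.97 (adjusted p = 0.00298) and with the table of the whole series 0.94 (adjusted p = 0.00813), so the call depended on the scaling. Fth1 had r of -0.64 with the same crypt list (exact p = 0.0493, adjusted p = 0.591).

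The genes with the pattern most like a member were sought by Pearson's r over the 9 mice among the other 5886 genes detected on all arrays, as a description. For Slc11a2 they were Myo9b (r = 0.92), Amotl2 (0.91) and Nck1 (0.89), and for Slc40a1 Zfp62 (0.94), Hoxc10 (0.90) and Asah1 (0.90). For Fth1 they were Ptpn2 (0.97), 1810020D17Rik (0.96) and Crot (0.95), and 13 genes had r above 0.9, against 2 each for Slc11a2 and Slc40a1. These values share the 9 arrays. How many genes lie above 0.9 for a typical gene was not computed. Like Fth1, the last 3 genes were highest in mouse 8 of feed B, and without that mouse their r with Fth1 was 0.87, 0.84 and 0.89. Slc11a2, Myo9b and Amotl2 were also highest in that mouse, and Nck1 in mouse 7 of feed B. Without mouse 8 of feed B, r with Slc11a2 was 0.89 for Myo9b, 0.87 for Amotl2 and 0.94 for Nck1.

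Of 49 other genes of iron and heme handling, 45 had a probe, 22 were detected in all mice and 31 were tested. None was called in the F test, and 3 (Abcg2, Mon1a and Iscu) had an unadjusted p below 0.05 (9.68% of those tested, beside 5.37% of all genes). The median difference of the 31 genes was 0.15 for K minus B, 0.20 for G minus B and -0.03 for G minus K, beside 0.05, 0.06 and -0.01 over all genes. For the 4 members the medians were -0.28, -0.21 and 0.31. Among the 31 genes, unadjusted p-values below 0.05 went to 2 higher and 1 lower gene for K minus B, 2 higher and 2 lower for G minus B, and 0 higher and 1 lower for G minus K, with none called in either direction.

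Of 15 genes of uptake and heme, 10 were tested, and Abcg2, an efflux pump of the apical membrane that also transports porphyrins, had the smallest F test p. Its log2 signal was 12.99, 12.98 and 12.98 in mice 7, 8 and 10 of feed B. It was 12.40, 12.32 and 12.38 in mice 1, 3 and 4 of feed K, and 12.14, 12.23 and 12.63 in mice 4, 8 and 11 of feed G. All mice of feed B lay above all others. Against feed B, the differences were -0.62 (SE 0.18) for feed K and -0.65 (SE 0.18) for feed G (limma F test, adjusted p = 0.746). Abcg2, and Mon1a and Iscu below, are described because of their F test p, a choice that favours feeds standing apart. The share of all genes with feed B, or feed G, outside both other feeds was not computed.

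Of 9 genes of cytosolic handling and storage, 6 were tested. Mon1a, known for a part in the trafficking of ferroportin, was 10.89, 11.13 and 11.13 in mice 7, 8 and 10 of feed B and 10.91, 11.05 and 11.36 in mice 1, 3 and 4 of feed K. In mice 4, 8 and 11 of feed G it was 10.61, 10.57 and 10.39, below all others (limma F test, adjusted p = 0.894). Of 9 mitochondrial genes, 7 were tested. Iscu, the scaffold of iron-sulfur cluster assembly, was 9.01, 9.04 and 9.89 in mice 7, 8 and 10 of feed B, between 9.94 and 10.39 on feed K and between 9.75 and 10.14 on feed G (limma F test, adjusted p = 0.894). Feeds B and K did not overlap there, whereas feeds B and G did.

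Of 16 genes of iron sensing and systemic control, 8 were tested and none had an F test p below 0.05. Steap1, Steap3, Steap4, Tfr2, Hamp, Bmp6 and Ftmt were detected in no mouse.

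The other iron genes showed how wide the spread over mice can be. Among the 22 detected in all mice, the SD was between 0.18 and 0.95 with a median of 0.31, and the ratio of the highest to the lowest mouse was at most 2 for 11. Lcn2, Slc46a1 and Ftl2 are named after their values were seen. Lcn2, a secreted protein that binds iron-carrying siderophores, was between 9.01 and 12.85 in the 8 mice in which it was detected, and it was not detected in mouse 8 of feed B, as was Tfrc. Slc46a1, a transporter of folate and heme, was between 9.14 and 12.13 (SD 0.88), highest in mouse 8 of feed B. The probe named Ftl2, a gene nearly identical to Ftl1, was between 16.14 and 16.89 (SD 0.29, limma F test, adjusted p = 0.960), and which of the 2 genes it reads is uncertain.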

How the data were processed

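Jejunal RNA of 9 mice was measured on single-colour Applied Biosystems arrays. For each array the authors deposited a background-corrected, spatially normalized intensity for every spot. Beside it the authors deposited the spot's standard deviation, a signal-to-noise score and a quality flag. A table of the whole series, deposited in linear units of signal, repeats the assay-normalized column of the array files in each of its 297108 cells. Its medians were between 1.06 and 1.53 per array. Its values are not centred, and the divisor behind them is unknown. The labels name RMA, without a version, as a processing tool, and the linear values do not show it.

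Failed spots (flag above 5000) were set to missing. Intensities of 33012 probes were quantile normalized and converted to log2, and probes of 1 gene were averaged. Genes detected (signal-to-noise ratio of at least 3) on at least 3 arrays were tested with limma 3.58.1 in R 4.3.3 (F test over the feeds and 3 pairs of feeds, Benjamini-Hochberg adjustment at 0.05). The fits were tested on simulated data. Correlations used all 362880 pairings of 9 mice, in Python 3.11.15 with numpy 2.4.6, pandas 2.3.3 and scipy 1.17.1. Precision was limited by the number of arrays. Each array had its own mouse, so the tests set feeds against a spread in which mouse, tissue sampling and array cannot be told apart. No batch was given.

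The members and lists were chosen with earlier results of these data known. Named were the members, other iron genes with an F test p below 0.05 or detected in no mouse, the 3 genes most like each member detected on all arrays, and members of marker lists. Marker lists of villus, crypt, proximal and distal intestine, smooth muscle, blood, macrophages, lymphocytes and pancreas gave the 36 relations with 4 members. Genes of a list were used if detected on at least 7 arrays. The proximal, blood and pancreas lists were thus read by 1 gene each, Gata4, Hba-a1 and Cela1. As alternatives, the series table, scaling to equal medians, 1 brightest probe per gene, keeping failed spots, leaving out dim spots, other filters and tests, and leaving out each array were tried. Promoter sequences are from RefSeq (GRCm38.p6).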

Additional observations from a re-analysis of the deposited data

Results flagged for a closer look

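The log2 signal of Fth1 in mouse 8 of feed B stood apart from the other 8 mice. The gap to the next mouse was 0.578 of the whole range, above Dixon's 95% limit for 9 values. Chance passes that limit in about 1 in 20 sets, and it was applied to each of the 6 genes with values. Of these, Fth1 alone was past it. With arrays scaled to equal medians the widest gap was 0.137 of the range, below mouse 3 of feed K as the highest, and in the series table it was 0.312, at mouse 8 of feed B. The same array had the smallest share of probes detected, 33.7%. The gap of Tfrc at its lowest mouse, the same one, was 0.464, under the limit.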

How the results depend on the processing

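With spots left out whose signal was below their noise, 3 genes were called in the F test, 3 for G minus B and 3 for G minus K. With only genes detected on all 9 arrays, 1 gene was called in the F test and 1 for G minus B. Leaving out each mouse gave 0 to 3 calls in the F test, 0 to 10 for K minus B, 0 to 3 for G minus B and 0 for G minus K, with every call arising without mouse 10 of feed B. No member was called under any of these alternatives. The difference of Slc11a2 (K minus B) turned to 0.0065 and that of Fth1 (G minus B) to 0.084 with median scaling, but relative to the median of all genes they were -0.40 and -0.44. Median scaling also turned r of Tfrc with Fth1 to 0.10 and of Slc40a1 with the villus list to 0.086. The SD of Slc40a1 was 0.49 with median scaling, 0.48 in the series table and 0.25 with feed means subtracted, that of Fth1 0.23 with median scaling, and that of Tfrc 0.93 without those dim spots. Without each mouse in turn, the SD was between 0.86 and 1.60 for Tfrc and between 0.17 and 0.34 for Fth1, the lowest value in both without mouse 8 of feed B. It was between 0.25 and 0.31 for Slc11a2 and between 0.32 and 0.39 for Slc40a1. Of relations with marker lists, 1 passed with median scaling, 1 in the series table, and 0 to 1 without a mouse. At a signal-to-noise ratio of 5, Heph was detected in 0 mice, Tfrc in 7 and Slc40a1 in 8. The causes were not tested. No paired analysis was possible because no pair of feeds shares more than 1 mouse number.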
